A study of Mus musculus with 6 samples.

Results

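Chac1, Ddit4, Sesn2, Gadd45a, Gadd45b, Hspa1a and Hspa1b are 7 stress-response genes, chosen by symbol and described here out of the 854 genes of the deposited table. They were measured by RNA sequencing in mouse OT-I cells, which are CD8 T cells with a transgenic receptor for a peptide of ovalbumin. The cells were naive, came from spleen and lymph nodes, and were of 2 genotypes, wild-type (WT) and conditional knockout (cKO) for Themis, a signalling protein of T cells. Cells of both genotypes were kept for 3 days with IL-2 at 1 µg/ml, and 3 libraries were sequenced per genotype. The Cre driver of the knockout, the age of the mice and whether the replicates came from separate mice or cultures are not stated in the labels. The p-values therefore reflect the spread among these libraries alone, which may be technical.

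The integrated stress response joins several stresses, among them amino acid shortage and a loaded endoplasmic reticulum, to the phosphorylation of the initiation factor eIF2. Phosphorylated eIF2 slows most protein synthesis but favours translation of ATF4, a transcription factor that switches on genes of amino acid supply and of stress adaptation. Chac1, which breaks down glutathione, and Sesn2, a leucine-sensing restraint on the growth kinase mTORC1, are ATF4 targets, and Ddit4 (REDD1), another restraint on mTORC1, is induced by ATF4, hypoxia and glucocorticoids. GADD45 proteins are small adaptors for DNA damage and MAP kinase signalling, and Hspa1a and Hspa1b encode the inducible HSP70 chaperones that heat shock factor switches on.

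The stretches upstream of 4 of these genes are shown because they hold response-element letters of the pathways just named, and because the 2 HSP70 stretches are nearly the same. All 7 genes matched the RefSeq promoter table (GRCm38.p6). Each line gives the 250 bases before the annotated gene start, 5′ to 3′ on the gene's strand, for Chac1 (chr2:119350992-119351241, plus strand), Ddit4 (chr10:59951771-59952020, minus strand), Hspa1a (chr17:34972157-34972406, minus strand) and Hspa1b (chr17:34959239-34959488, minus strand). Capitals mark the core of the ATF4 and CHOP response element (TGATGNAA, here on the opposite strand) in Chac1, the core of the hypoxia response element (ACGTG) in Ddit4, and a pair of heat shock element units (GAANNTTC) in the HSP70 genes, the last motif chosen after the sequences were seen.
Chac1: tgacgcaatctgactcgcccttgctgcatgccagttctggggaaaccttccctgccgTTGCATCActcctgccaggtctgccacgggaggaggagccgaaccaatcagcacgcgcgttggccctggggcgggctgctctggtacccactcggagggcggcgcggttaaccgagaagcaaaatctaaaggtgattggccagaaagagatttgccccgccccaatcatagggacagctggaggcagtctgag
Ddit4: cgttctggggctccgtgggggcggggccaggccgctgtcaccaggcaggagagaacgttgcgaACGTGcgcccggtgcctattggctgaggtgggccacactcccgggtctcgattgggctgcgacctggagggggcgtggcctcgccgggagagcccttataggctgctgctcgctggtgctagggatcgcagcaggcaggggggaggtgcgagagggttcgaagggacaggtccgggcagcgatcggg
Hspa1a: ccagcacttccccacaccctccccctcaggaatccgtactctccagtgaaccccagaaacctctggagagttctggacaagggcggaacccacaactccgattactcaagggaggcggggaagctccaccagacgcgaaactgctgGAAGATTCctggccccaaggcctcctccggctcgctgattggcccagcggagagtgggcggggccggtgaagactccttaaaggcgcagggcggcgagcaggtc
Hspa1b: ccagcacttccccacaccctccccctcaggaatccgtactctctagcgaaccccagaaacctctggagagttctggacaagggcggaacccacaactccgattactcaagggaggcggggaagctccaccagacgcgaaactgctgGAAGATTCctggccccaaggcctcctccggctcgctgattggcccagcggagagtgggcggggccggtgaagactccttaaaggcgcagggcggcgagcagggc

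Motifs were searched on both strands over the table's 300-base windows, which reach 50 bases past the gene start. The ATF4 and CHOP core was found in Chac1 alone of the 7, at positions -193 to -186 from the gene start, and in 3.97% of 32851 promoters. ACGTG was found in Ddit4 (-187 to -183) and, as overlapping matches on opposite strands, in Gadd45b, against 19.6% of promoters. The pair GAANNTTC lay at -104 to -97 in both HSP70 genes and in 7.86% of promoters. CCAAT was found in all 7 genes, against 37.4% of promoters, and TATAAA in Gadd45b, against 13.6%. The full cyclic AMP response element (TGACGTCA, 1.79% of promoters) and the heat shock element of 3 perfect alternating units (0.603% in either orientation) were not found in these 7 windows. A match is a description of letters, not of binding. The Hspa1a and Hspa1b stretches were 98.8% identical over 250 bases, with 3 substitutions from Hspa1a to Hspa1b counted from the first base printed, C44T, T47C and T249G.

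Counts were divided by a factor for each library so that replicates of a genotype share one depth (scaled counts), with both genotypes taken at equal depth. All 7 genes passed edgeR's filter on low counts and all 7 were lower in cKO at a Benjamini-Hochberg adjusted p under 0.05 over the 794 tested genes. Hspa1a passed that filter, with its smallest count of 10, through its WT libraries, having 9.83, 6.03 and 2.96 scaled counts in cKO. A gene kept that way could hardly be called other than lower, so its call adds no support. The background is 75.8% of tested genes called lower, and each remaining gene was called higher, because the table holds only genes that differ about 2-fold or more between these same libraries. The log2 ratios of mean counts leave the interval from -0.94 to 1.06 empty. Being lower in cKO was thus common to the table, and passing the test is not independent evidence. Every cKO library lay under every WT library for all 7 genes, as for 75.7% of tested genes. The median log2 fold change of the 7 genes was -1.69, beside -1.34 over all tested genes and -1.64 over those that were lower. In bulk RNA, fewer cells that carry a transcript and less of it per cell cannot be told apart.

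Chac1 had the largest fall of the 7. It had 262, 230 and 296 scaled counts in WT libraries 1 to 3 and 43.3, 40.3 and 24.2 in cKO libraries 1 to 3. The cKO libraries stood far under the WT ones, and cKO library 3 was the lowest. The means were 262 ± 32.7 and 36.0 ± 10.3 (SD, n = 3 each), 7.30-fold lower in cKO. The log2 fold change was -2.86 ± 0.22 (standard error; adjusted p = 1.33e-06 by edgeR's quasi-likelihood test). It ranked 93 from the lowest fold change of the 794 tested genes. Chac1 (Gene ID 69065) spans positions 119351242 to 119354326 of chromosome 2 in GRCm38.p6.

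Ddit4 had 1477, 1290 and 1299 scaled counts in the WT libraries and 359, 360 and 291 in the cKO libraries. Both genotypes were tight and well apart, with cKO library 3 again the lowest. The means were 1356 ± 106 and 337 ± 39.9 (SD, n = 3 each), 4.03-fold lower, with a log2 fold change of -2.01 and a standard error of 0.13 (edgeR, adjusted p = 3.18e-07). The gene (Gene ID 74747) lies on chromosome 10, 59949675 to 59951770.

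Sesn2 had 1607, 1394 and 1716 scaled counts in the WT and 516, 485 and 457 in the cKO libraries. WT library 3 was the highest and cKO library 3 the lowest, as for Chac1. Sesn2 means were 1572 ± 163 and 486 ± 29.1 (SD, n = 3 each), 3.24-fold lower, with a log2 fold change of -1.69 and a standard error of 0.12 (edgeR, adjusted p = 5.16e-07). Sesn2 (Gene ID 230784, chromosome 4, 132492804 to 132510456) overlaps the non-coding gene Gm12981 over 6089 bases on its own strand, and the labels do not say whether the counting used strand.

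The GADD45 genes had the smallest falls. Gadd45a, which p53 induces after DNA damage, had 118, 92.4 and 90.2 scaled counts in the WT and 51.4, 41.3 and 57.5 in the cKO libraries. Its means were 100.1 ± 15.2 and 50.1 ± 8.19 (SD, n = 3 each), with a log2 fold change of -0.997, a standard error of 0.21 and a 95% interval of -1.47 to -0.52 (edgeR, adjusted p = 0.0011). This placed Gadd45a beside the empty interval of the table: 6.98% of the lower genes had a smaller fall. Gadd45a (Gene ID 13197, chromosome 6, 67035096 to 67037407) overlaps E230016M11Rik on the opposite strand over 859 bases.

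Gadd45b, the family member that NF-κB signalling induces in lymphocytes, had 473, 459 and 403 scaled counts in the WT and 182, 190 and 194 in the cKO libraries. The cKO libraries of Gadd45b were the most alike of any of the 7 genes in either genotype, with a coefficient of variation of 3.12%. Its means were 445 ± 37.0 and 189 ± 5.88 (SD, n = 3 each), 2.36-fold lower, with a log2 fold change of -1.24 and a standard error of 0.13 (edgeR, adjusted p = 1.05e-05). The gene (Gene ID 17873) lies on chromosome 10, 80930091 to 80932204. Gadd45g, the third family member, was on a gene list examined here but not in the table and was not analysed here.

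**Figure D1:**
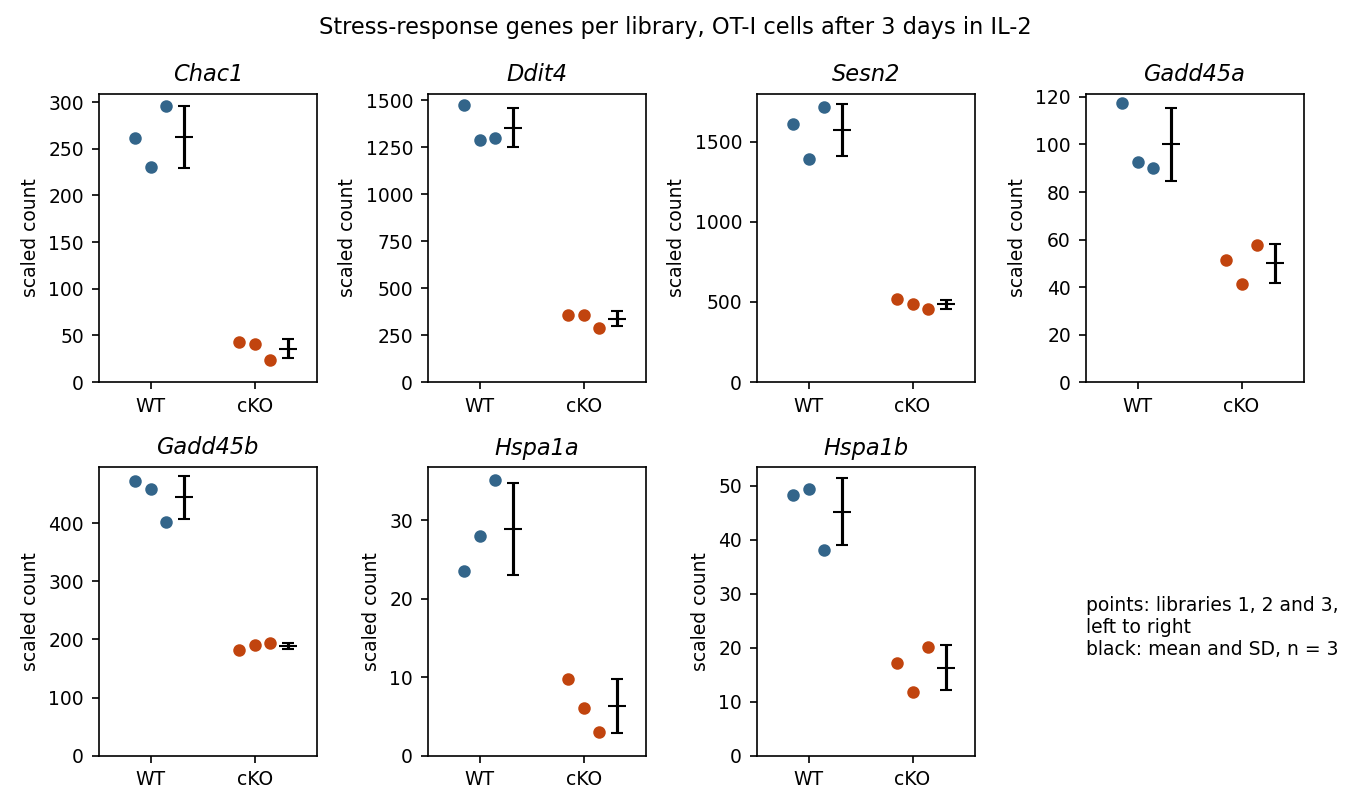
Scaled counts (y axis, from 0) of the 7 genes in each WT (blue) and cKO (red) library, with the mean and SD of 3 libraries in black. In every panel all cKO points lie under all WT points, and Chac1 has the largest fold difference, from 262 ± 32.7 to 36.0 ± 10.3.

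The HSP70 genes had the lowest counts of the 7. Hspa1a had 23.5, 28.0 and 35.2 scaled counts in the WT and 9.83, 6.03 and 2.96 in the cKO libraries. Hspa1b had 48.3, 49.4 and 38.0 in WT and 17.1, 11.8 and 20.1 in cKO. The 2 genes did not move alike between libraries: WT library 3 was the highest for Hspa1a and the lowest WT library for Hspa1b, and cKO library 3 was the lowest for Hspa1a and the highest cKO library for Hspa1b. Hspa1a means were 28.9 ± 5.88 and 6.27 ± 3.44 (SD, n = 3 each), with a log2 fold change of -2.17 and a standard error of 0.41 (edgeR, adjusted p = 0.000547). Hspa1b means were 45.2 ± 6.26 and 16.3 ± 4.21 (SD, n = 3 each), with a log2 fold change of -1.47 and a standard error of 0.28 (edgeR, adjusted p = 0.000634).

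Reads of these 2 genes can be hard to tell apart. On the minus strand of chromosome 17 they lie at 34969359 to 34972156 (Hspa1a, Gene ID 193740) and 34956429 to 34959238 (Hspa1b, Gene ID 15511). Of the 100-base windows in their GENCODE transcripts, 48.6% for Hspa1a and 49.9% for Hspa1b occur in another gene, which was the other HSP70 gene or Hspa1l. No 100-base window of Chac1, Ddit4, Sesn2, Gadd45a or Gadd45b was shared. The deposited counts show the same split: these 5 genes had whole counts in all 6 libraries, while Hspa1a and Hspa1b had fractions in all 6. Hspa1a overlaps the coding gene Gm20481 on the opposite strand over 2225 bases as well.

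The sum of Hspa1a and Hspa1b was steadier than either gene in WT. The summed scaled counts were 71.8, 77.3 and 73.2 in WT and 26.9, 17.8 and 23.1 in cKO. The means were 74.1 ± 2.85 and 22.6 ± 4.57 (SD, n = 3 each), 3.28-fold lower, with a log2 fold change of -1.70 and a standard error of 0.23 (edgeR with the 2 genes entered as 1, adjusted p = 6.55e-05). Hspa1a made up 32.7%, 36.2% and 48.0% of the sum in WT libraries 1 to 3 and 36.5%, 33.8% and 12.8% in cKO libraries 1 to 3. The share in cKO library 3 stood apart from the other 5. It rests on an estimated Hspa1a count of 2.93 out of 22.85, and whether it lies beyond counting noise was not tested.

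Ratios of 2 genes within a library need no scaling between libraries, and 5 such ratios were compared. The log2 ratio of Chac1 to Sesn2 was -2.62, -2.60 and -2.54 in WT and -3.56, -3.57 and -4.21 in cKO. The genotypes did not overlap, and the mean fell by 1.198 on the log2 scale. The log2 ratio of Chac1 to Ddit4 fell by 0.88 and that of Ddit4 to Sesn2 by 0.32, also without overlap. Each of these 3 ratios reached p = 0.1 in a two-sided exact permutation test, the smallest p that 3 against 3 libraries allow, and 0.167 after adjustment over the 5 ratios. The order of the falls, Chac1 then Ddit4 then Sesn2, was thus not called by this test, whose floor lies above 0.05.

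The other 2 ratios overlapped between genotypes. Gadd45a to Gadd45b had a log2 ratio of -2.15 ± 0.15 in WT and -1.92 ± 0.24 in cKO (SD, n = 3 each; difference 0.24; exact permutation p = 0.3, adjusted 0.375). Hspa1a to Hspa1b had -0.65 ± 0.48 in WT and -1.42 ± 1.00 in cKO (SD, n = 3 each; difference -0.77; exact permutation p = 0.5, adjusted 0.5). The Hspa1a to Hspa1b difference was -0.19 without cKO replicate 3. A p that misses the threshold does not show that these pairs moved alike.

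**Figure D2:**
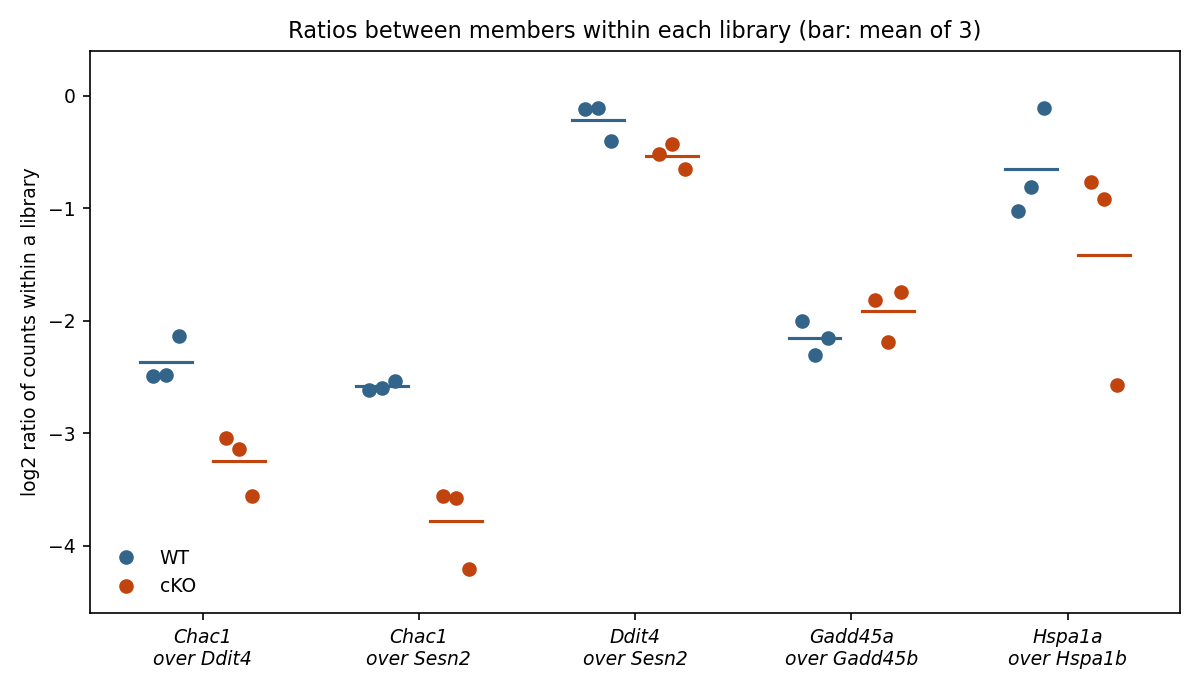
Log2 ratios of deposited counts between 2 genes in the same library (y axis), for WT (blue) and cKO (red), with bars at the mean of 3 libraries. The 3 ratios among Chac1, Ddit4 and Sesn2 do not overlap between genotypes, while those of the GADD45 and HSP70 pairs do, and 1 cKO library sits at -2.57 for Hspa1a over Hspa1b.

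How far the genes fell depended on how the genotypes were scaled. Scalings that centre the table on itself assume that most of its genes do not change. A table that holds only genes that differ between the genotypes does not meet that assumption. These scalings moved the median log2 fold change of all tested genes up by 1.25 to 1.31. Under these 3 scalings (TMM and DESeq2 size factors in edgeR, and DESeq2 with its own size factors) Chac1 stayed lower at -1.57 (adjusted p of 3.83e-09 to 0.000141), Ddit4 at -0.72 to -0.71 (3.81e-07 to 0.000762) and Sesn2 at -0.40 (0.00264 to 0.0129). Gadd45a turned to 0.29 to 0.30 (adjusted p of 0.261 to 0.334) and Gadd45b to 0.05 to 0.06 (0.727 to 0.760). Hspa1a at -0.89 to -0.88 (0.0993 to 0.183) and Hspa1b at -0.18 (0.620 to 0.722) kept their sign and lost their call. Thus 3 of the 7 genes were called lower there, against a background of 27%, 26.8% and 25.2% of tested genes called lower and 28.7%, 28.5% and 27.6% called higher, in the order of the scalings. With the empty interval of the table centred on 0 in place of equal depth, the 7 log2 fold changes ran from -2.92 for Chac1 to -1.06 for Gadd45a, and all 7 were called.

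**Figure D3:**
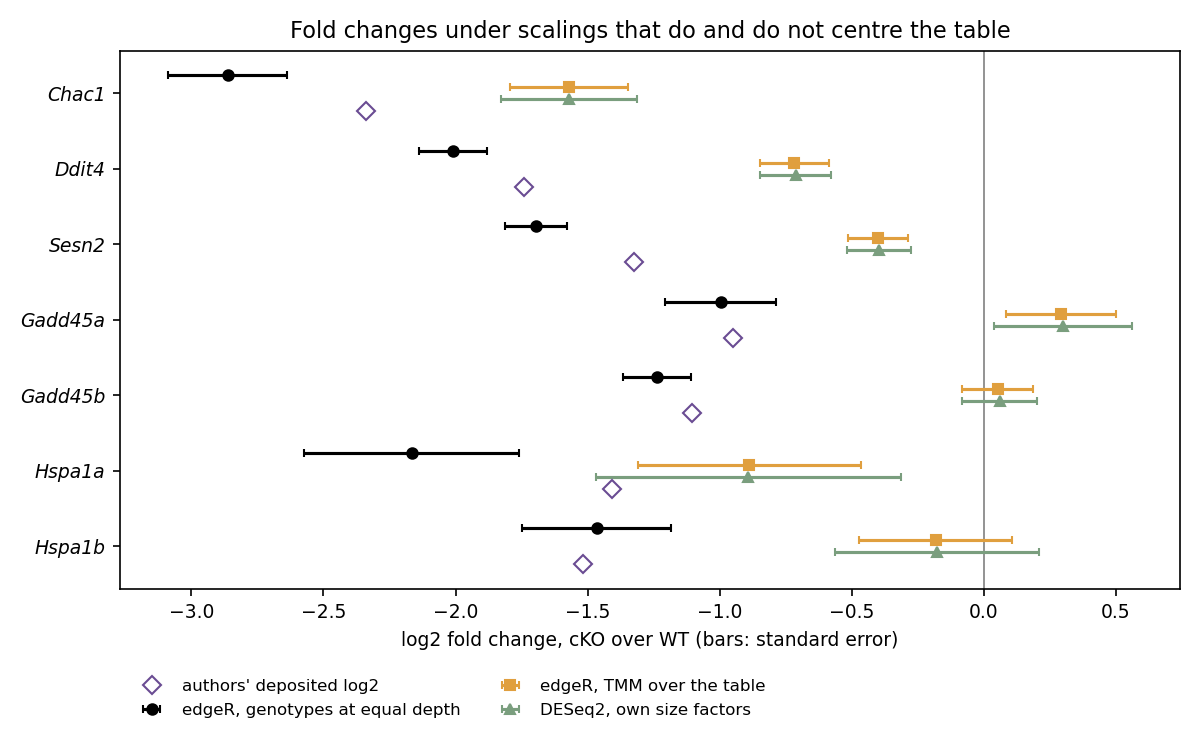
Log2 fold change of cKO over WT (x axis) for each gene, with genotypes at equal depth in edgeR (black), with TMM over the table (orange), in DESeq2 with its own size factors (green) and as deposited by the authors (open diamonds); bars are standard errors. The points of Chac1, Ddit4, Sesn2, Hspa1a and Hspa1b lie under 0 in all 4, while Gadd45a and Gadd45b lie above 0 in the orange and green points.

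The authors' deposited table gives all 7 genes a negative log2 value. In the authors' deposited table these values were -2.34 for Chac1, -1.74 for Ddit4, -1.33 for Sesn2, -0.95 for Gadd45a, -1.10 for Gadd45b, -1.41 for Hspa1a and -1.52 for Hspa1b. Its q-values were 4.22e-07 for Chac1, 0.000187 for Gadd45b, 0.000237 for Ddit4, 0.00389 for Gadd45a, 0.0215 for Hspa1b, 0.0259 for Sesn2 and 0.144 for Hspa1a. Under a q-value of 0.05 the authors' deposited table thus has 6 of the 7, Hspa1a being the exception, against 55% of its 854 genes lower and under that limit. Sesn2 ranked sixth by q-value in the authors' deposited table and second of the 7 by adjusted p in edgeR. If the deposited p-value is read as that of a Wald test, the standard error behind the authors' deposited Sesn2 value was 0.44, against 0.12 in edgeR, and for Gadd45a 0.26 against 0.21.

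Levels can be compared between genes only per length, here as scaled counts per kb of merged GENCODE exons. In WT the order was Ddit4 (772 ± 60.2 per kb), Sesn2 (452 ± 47.0), Gadd45b (280 ± 23.3), Chac1 (160 ± 20.0), Gadd45a (56.7 ± 8.64), Hspa1b (16.1 ± 2.23) and Hspa1a (9.73 ± 1.98; SD, n = 3). No neighbours in that order overlapped between libraries. In cKO the order was Ddit4 (192 ± 22.7 per kb), Sesn2 (140 ± 8.38), Gadd45b (119 ± 3.70), Gadd45a (28.4 ± 4.64), Chac1 (22.0 ± 6.27), Hspa1b (5.83 ± 1.502) and Hspa1a (2.11 ± 1.16; SD, n = 3). Gadd45a and Chac1 overlapped there at these lengths, whereas in WT Chac1 stood above Gadd45a in every library. The length of Gadd45a was 1764 bases, merged over 7 transcripts of which the longest has 1223. A shorter length would raise its level, so the overlap in cKO holds for merged exons only, and other lengths were not tried.

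Of 37 further genes of the ATF4 and amino acid stress response, 22 were in the table. The table holds about 5.02% of the 16996 genes implied as tested, and the list was chosen with earlier results of these data known. All 22 were called lower in edgeR, with a median log2 fold change of -2.05 beside -1.64 over the lower genes and -1.34 over all tested genes, of which 75.8% were called lower. Of the 22 genes, 21 had a q-value under 0.05 in the authors' deposited table. Under the table-centred scalings 13 remained called lower in all 3, against at most 27% of all tested genes in any of them. Another 3 turned sign there, and 2 of these (Slc3a2 and Cebpg, named for that after their values were seen) were called higher in all 3. In the authors' deposited table both were lower in cKO, with log2 values of -0.75 for Slc3a2 and -0.86 for Cebpg (q-values 0.00585 and 2.86e-07). The 6 with the highest counts are named here. Ero1l, an oxidase of the endoplasmic reticulum, had 6460 ± 373 scaled counts in the WT and 1884 ± 182 in the cKO libraries. Eif4ebp1, a translation repressor that mTORC1 inactivates, had 2880 ± 239 and 683 ± 170 scaled counts.

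Asns, asparagine synthetase, had 1969 ± 206 and 397 ± 169 scaled counts. Ppp1r15a (GADD34), which brings a phosphatase to eIF2 and so ends the response, had 1394 ± 125 and 432 ± 31.3. Trib3, a pseudokinase that feeds back on ATF4, had 2345 ± 163 and 954 ± 229, with a log2 fold change of -1.30 that moved to about 0 when the table was centred (adjusted p up to 0.988). Slc3a2, the heavy chain of the large amino acid transporter, had 10620 ± 871 and 5497 ± 543 scaled counts and under those scalings was called higher in cKO (log2 fold change up to 0.35, adjusted p up to 0.00691). Atf4 itself was not in the table and was not analysed here.

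The table holds about 5.02% of the 16996 genes that its q-values imply were tested, so few genes of a short list would be in it. Of 11 eIF2 kinases and related factors only Eif2ak2 (PKR, an RNA sensor that interferon induces) was in the table, at 3096 ± 217 scaled counts in the WT and 1134 ± 19.7 in the cKO libraries, a log2 fold change of -1.45 (edgeR, adjusted p = 2.2e-07). It kept its sign and lost its call under the table-centred scalings (adjusted p up to 0.174). None of 16 genes of the unfolded protein response and none of 30 further heat shock and HSP70 system genes was in the table, so Hspa1a and Hspa1b were its only genes of that system on these lists. Genes that the unfolded protein response shares with ATF4, such as Ero1l and Ppp1r15a, were counted on the ATF4 list alone. The 16 genes are thus a part of the unfolded protein response. Of 18 further genes that control mTORC1 only Castor2 was in the table, and it was higher in cKO. Castor2 had 36.2 ± 9.30 scaled counts in the WT and 76.8 ± 16.7 in the cKO libraries, a log2 fold change of 1.08 (edgeR, adjusted p = 0.00262). Its deposited q-value in the authors' deposited table was 0.0556.

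Of 21 further genes of the GADD45 and p53 response, the table held 5, beside about 5.02% of all genes implied as tested. Each of the 5 was called lower in edgeR, as were 75.8% of all tested genes. None turned sign under the table-centred scalings, and 4 stayed called lower in all 3, against at most 27% of all tested genes in any of them. Cdkn1a, the p21 cell cycle inhibitor, had 3861 ± 442 scaled counts in the WT and 698 ± 82.4 in the cKO libraries. The kinase gene Plk2 had 478 ± 40.8 and 49.0 ± 3.14. The BH3-only genes Bbc3 and Pmaip1 had log2 fold changes of -1.93 and -2.04. Phlda3, an inhibitor of AKT, had -1.39 and lost its call when the table was centred (adjusted p up to 0.626). Trp53 and Mdm2 were not in the table and were not analysed here.

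**Figure D4:**
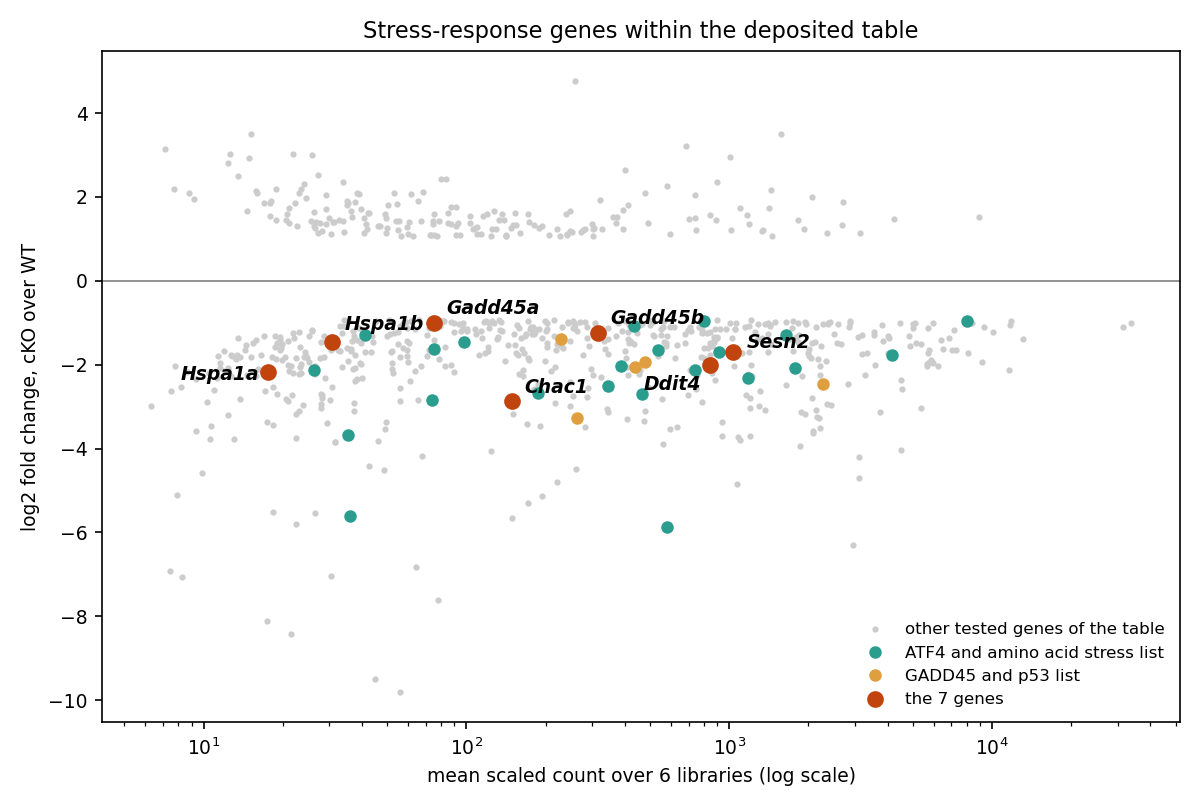
Log2 fold change of cKO over WT (y axis) against the mean scaled count over 6 libraries (x axis, log scale) for all tested genes (grey), with the 7 genes in red, the ATF4 and amino acid stress list in green and the GADD45 and p53 list in orange. No points lie near 0, Chac1 is the lowest of the 7, and all coloured points are under 0.

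Of the 527 genes of the table that could be compared, with a mean of at least 50 scaled counts and no name of the predicted Gm form or ending in Rik, those whose profiles over the 6 libraries were closest to each of the 7 are named next, 3 for each. Likeness was the root mean square difference of centred log2 values, so a small value means a similar fold change and similar deviations. Ddit4 was closest to Helz2 (0.04) and then to Slc1a4, an amino acid transporter on the ATF4 list (0.07), and Oas3 (0.08). Sesn2 was closest to Cd6 (0.03), Zbp1 (0.07) and Tmem106a (0.08). Gadd45b was closest to 9930111J21Rik1 (0.02), Hk2 (0.04) and Slfn9 (0.05). Chac1 had no gene that close, its nearest being Ccl3 (0.17), Oasl2 (0.18) and Ccl4 (0.19).

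Gadd45a was nearest to Hpse (0.09), Nt5c3 (0.10) and P2ry10b (0.11), and Hspa1b to Slc41a2 (0.07), Tnfsf9 (0.15) and Tmem67 (0.16). Hspa1a, with the lowest counts, was nearest to Gpt2 (0.32), Ccl4 (0.33) and Ciart (0.34). Among the 7 themselves the closest pairs were Ddit4 with Sesn2 (0.20) and Gadd45a with Gadd45b (0.20), while Hspa1a and Hspa1b were 0.70 apart. These likenesses describe 6 libraries and carry no test.

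Themis, which checks the labels, had 5423 ± 420 scaled counts in the WT and 1140 ± 141 in the cKO libraries (SD, n = 3 each). Over the table's genes the deposited counts summed to between 946766 and 1054442 in WT and between 424605 and 437437 in cKO; the depth of the libraries is unknown, since such sums cover part of each library. No gene of 11 that define CD8 T cells and none of 8 RNA quality markers was in the table, so neither could be checked. Other marker lists moved with genotype beside these results, and their part in them was not tested. Of 14 dissociation and immediate early genes 7 were in the table, beside about 5.02% of all genes implied as tested. All 7 were called lower in cKO, as were 75.8% of all tested genes. Their summed scaled counts were 24783 to 26147 in WT libraries and 11278 to 12184 in cKO libraries. Myc made up most of these sums, with means of 15776 in WT and 7540 in cKO. Under the table-centred scalings none stayed called lower in all 3 while 3 turned sign. Of these 3 genes Junb and Myc, named after their values were seen, were called higher in all 3 scalings. In the authors' deposited table both were lower in cKO, with log2 values of -0.76 for Junb and -0.89 for Myc (q-values 0.136 and 1.13e-05).

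Of 10 NK cell markers 6 were in the table, and for this and the next lists the share of all genes implied as tested was about 5.02%. All 6 NK markers were called higher in cKO, as were 24.2% of all tested genes. The 6 summed to 512 to 813 in WT and 1345 to 2376 in cKO, and all 6 had a q-value under 0.05 in the authors' deposited table. Of 9 B cell markers 4 were in the table, all higher, with sums of 63.9 to 109 in WT and 134 to 367 in cKO. None of these 4 had a q-value under 0.05 in the authors' deposited table (0.0656 to 0.171), and Ms4a1 overlapped between genotypes. Of 15 myeloid and dendritic markers 4 were in the table, with 2 higher and 2 lower, at 639 to 799 in WT and 325 to 356 in cKO. Of 8 CD4 and gamma-delta markers 3 were in the table, with 1 higher and 2 lower, at 893 to 993 in WT and 334 to 570 in cKO. Ctla4 had means of 609 in WT and 226 in cKO, and Ikzf2, which turned sign under the table-centred scalings, 316 and 148. Sox13 was higher in cKO, with means of 34.5 and 84.0, so the falling sum does not describe all 3 genes. Of 10 erythroid and granulocyte markers the table held 3, none of which passed the filter on low counts, with sums of 1.97 to 12.5 in WT and 7.05 to 35.3 in cKO; Hbb-bs was at 0 in every WT library and Hbb-bt at 0 in every cKO library.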

How the data were processed

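Per the labels' protocols, RNA was extracted with a column kit and sequenced on a DNBSEQ-G400. Per the submitters' processing notes, the tools were RSEM 1.2.12, HISAT2 2.0.4, DESeq2 1.4.5 and Bowtie2 2.2.5 and the build GRCm38.p6, with no role given. The authors deposited 854 genes with an estimated count per library (66.1% of values whole) and, per the file headers, a log2 fold change (cKO over WT), a p-value and a q-value; the rule by which they selected genes is not stated. Counts were rounded and fitted in edgeR 4.0.16 (R 4.3.3; quasi-likelihood, genotype only; smallest count of 10 in the filter; 794 genes tested, 60 left out). Library factors (0.944 to 1.04) were medians of ratios within a genotype. The members, the 14 gene lists and the tests were chosen with earlier results of these data known. Named genes are the 7 members, Themis, the 6 genes (or fewer) of highest count on each list, and the 3 genes most like each member; marker lists are given as sums. Ratios had 0.5 added to both counts. The fit was run on simulated data in which most genes did not change, unlike this table, so that run does not bear on the scaling between genotypes. Replicates differed by more than sampling noise (chi-square divided by its degrees of freedom, 6.10 to 18.9). Adjusted p-values are from Benjamini-Hochberg. Alternatives used limma 3.58.1 and DESeq2 1.42.0; tables and figures used scipy 1.17.1, matplotlib 3.10.9, numpy 2.4.6 and pandas 2.3.3 in Python 3.11.15.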

Additional observations from a re-analysis of the deposited data

How the results depend on the processing

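The fold changes of the 7 genes and of the HSP70 sum and the counts of calls were recomputed under other scalings, tests, filters, adjustments and thresholds and with each library left out. The 5 ratios were recomputed with other pseudocounts, the block and each library left out, the gene lists under the table-centred scalings alone, and the levels per kb, shares, likenesses and marker sums were not recomputed. Under the 3 scalings that centre the table, in the order TMM in edgeR, DESeq2 size factors in edgeR and DESeq2 with its own size factors, the log2 fold change was 0.29, 0.30 and 0.30 for Gadd45a, 0.0526, 0.0593 and 0.0596 for Gadd45b, -0.89, -0.88 and -0.89 for Hspa1a, -0.18, -0.18 and -0.18 for Hspa1b, and -0.42, -0.41 and -0.41 for the sum of Hspa1a and Hspa1b (adjusted p of 0.161 to 0.256 for the sum). The members called lower were 3, 3 and 3, all genes called 439, 435 and 451, and genes called lower 213, 211 and 215. By construction these scalings move the table's median toward 0. With a mean of at least 50 scaled counts required, 121 genes were called higher, since fewer genes were tested, and Hspa1a, Hspa1b and their sum gave no value. The replicate block changed no call of the 7 genes and left 793 of all genes called (Chac1 -2.87, Ddit4 -2.01). Deviations of same-numbered libraries from their genotype means had correlations of -0.063, -0.054 and -0.155. With 3 libraries per genotype these values cannot show whether the libraries were paired, which the labels do not state. No call of the 7 genes was lost with any library left out, where Chac1 ran from -3.01 to -2.64, Gadd45a from -1.10 to -0.89 and Hspa1a from -2.65 to -1.83, nor with adjustment over 16996 genes, the number tested that fits the deposited q-values (Gadd45a adjusted p = 0.0235 in edgeR). The 5 ratios kept their sign under every alternative run. Low counts limit the HSP70 genes most.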

Other observations

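Beyond the 6 genes named for their counts, the ATF4 and amino acid stress list held 16 more genes in the table, and the following were chosen after their values were seen. Atf3, a stress-induced transcription factor, had 1137 ± 55.7 scaled counts on average in the WT and 19.3 ± 4.62 in the cKO libraries (SD, n = 3 each), a log2 fold change of -5.87. Vldlr, a lipoprotein receptor that ATF4 can induce, had 70.9 ± 11.0 and 1.32 ± 1.15 scaled counts. Ddit3, which encodes CHOP, had 814 ± 61.9 and 260 ± 59.5 scaled counts, a log2 fold change of -1.65 that lost its call when the table was centred (adjusted p up to 0.0944 in edgeR and DESeq2). The amino acid transporter genes Slc6a9 and Slc7a3 had log2 fold changes of -2.70 and -2.67, and Cth, an enzyme of cysteine synthesis, had -3.69. Atf5, Cebpg and Slc3a2 were those that turned sign under the table-centred scalings.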
